A study of Homo sapiens with 7 samples.

Results

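The genes described here are 10 targets and feedback regulators of Wnt signalling: AXIN2, LGR5, ASCL2, RNF43, ZNRF3, NKD1, SP5, NOTUM, TCF7 and LEF1. They were chosen by name from 20162 protein-coding genes annotated on hg19. Every deposited peak over each gene and the 10 kb around it was taken, which gave 146 of the 240889 peaks in 6 lists. The cells were HCT116, an established human colorectal carcinoma line that carries an activating mutation of the β-catenin gene CTNNB1. Chromatin was sheared with PIXUL, an ultrasound instrument for 96-well plates, for 6 min in 100 µl. Each antibody received 1 well of 200000 cells, and the groups are the antibodies: H3K4me3, H3K9Ac, H3K4me1, H3K36me3, H3K27me3 and CTCF. There were no replicates and no treatment, so no difference below carries a replicate error or a test, and sequencing depth is not known because peak files carry no counts of reads.

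Wnt ligands bind Frizzled receptors at the cell surface and protect β-catenin from the destruction complex, after which β-catenin enters the nucleus and joins TCF and LEF proteins on DNA. The pathway switches on several of its own inhibitors, so that signalling is limited at the ligand, at the receptor and in the cytoplasm. In the intestine it maintains the stem cells at the base of the crypt, and in most colorectal carcinomas it is active without a ligand.

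Each peak carries a fold enrichment, which is a linear ratio of ChIP signal to background, and a −log10 q-value. Both describe the whole peak, so a value given for a TSS is that of the peak assigned to it, whatever its width. Peaks of H3K4me1 and H3K27me3 counted as past the limits when the q-value was under 1e-03 with more than 2-fold enrichment. For the other marks the limits were 1e-10 and 5. H3K4me3 and H3K9Ac mark active transcription start sites (TSSs), H3K4me1 marks enhancers and the flanks of promoters, and H3K36me3 lies over transcribed gene bodies. H3K27me3 is the mark of Polycomb repression, and CTCF is a DNA-binding protein of insulators and loop anchors. A mark was assigned to a TSS when a peak lay within 1 kb of the start of the canonical transcript. As a check of the label, 6 of 8 colon epithelial genes carried H3K4me3 at the TSS (VIL1 and CDX1 lacked it). Among genes of other cell types 1 of 7 did, COL1A1, at a fold enrichment of 9.21. The share of all coding genes was 59.1%, so the count of 8 colon genes is a weak check by itself.

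TCF and LEF proteins recognise a short motif, searched here as CTTTGAT on both strands of hg19. In the window from 250 bases before to 50 bases after the TSS it occurred in 3 of the 10 genes, SP5 among them, and in 1.95% of all coding promoters. All 3 also had H3K4me3, H3K9Ac and H3K4me1 at the TSS, and the SP5 promoter is printed below as an example. It runs 5′ to 3′ on the strand of its gene from 250 bases before to 30 bases after the TSS (chr2:171571597-171571876, plus strand), with the motif in capitals, which started 109 bp upstream of the TSS.
SP5 promoter: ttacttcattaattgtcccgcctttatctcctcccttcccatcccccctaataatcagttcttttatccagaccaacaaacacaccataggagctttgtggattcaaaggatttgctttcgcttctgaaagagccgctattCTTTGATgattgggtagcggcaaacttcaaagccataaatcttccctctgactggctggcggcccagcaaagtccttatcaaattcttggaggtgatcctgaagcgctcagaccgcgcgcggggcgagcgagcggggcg

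Most matches lay farther from the TSS. Within H3K4me3, H3K9Ac or H3K4me1 peaks past the limits, 60 matches were found over 9 of the 10 genes (ASCL2 had 0). Of these, 51 lay more than 1 kb from the TSS, with 22 of them at RNF43 and 15 at ZNRF3. Most of the sequence in these peaks also lay beyond 1 kb, so the split of counts is not one of density. RNF43 match 23, 66124 bp downstream, lay in the peaks over the start of the neighbouring gene SUPT4H1. By peak, 19 of the 29 H3K4me1 peaks past the limits over the 10 genes held a match, beside 24.4% of all 32292. These shares also depend on width, since a wider peak holds a match more readily. The 29 peaks covered 168.71 kb, and the median width in the whole list was 1906 bp. Per kb, the densities were 0.356 and 0.128. The matches below are those nearest to the AXIN2 and NOTUM starts, the match in the upstream NOTUM peak, and examples from the wide peaks of RNF43 and ZNRF3 and from the NKD1 and LEF1 introns. Each is printed on the strand that reads the motif, with the motif in capitals. AXIN2 match 1 (chr17:63557675-63557703, minus strand) lies in the 5′ UTR, whereas match 2 (chr17:63556878-63556924, minus strand) and match 3 (chr17:63554910-63554956, minus strand) lie in intron 1. NOTUM match 1 (chr17:79925983-79926029, minus strand) and match 2 (chr17:79919747-79919793, minus strand) lie 6946 and 710 bp upstream of the TSS, outside the gene. RNF43 match 5 (chr17:56490919-56490965, minus strand) and match 12 (chr17:56480675-56480721, plus strand) lie in intron 2, and ZNRF3 match 13 (chr22:29426854-29426900, plus strand) lies in intron 2. NKD1 match 4 (chr16:50637619-50637665, plus strand) and LEF1 match 1 (chr4:109038796-109038842, plus strand) each lie in intron 3.
AXIN2 match 1: agccggctgcgCTTTGATaaggtcctggc
AXIN2 match 2: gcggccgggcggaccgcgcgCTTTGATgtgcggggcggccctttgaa
AXIN2 match 3: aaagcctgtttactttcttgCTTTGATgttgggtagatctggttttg
NOTUM match 1: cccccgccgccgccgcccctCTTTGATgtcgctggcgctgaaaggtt
NOTUM match 2: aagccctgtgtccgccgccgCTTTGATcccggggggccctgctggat
RNF43 match 5: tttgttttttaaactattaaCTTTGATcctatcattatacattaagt
RNF43 match 12: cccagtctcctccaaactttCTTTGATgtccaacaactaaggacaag
ZNRF3 match 13: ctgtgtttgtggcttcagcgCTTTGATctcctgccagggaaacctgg
NKD1 match 4: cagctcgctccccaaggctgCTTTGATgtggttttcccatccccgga
LEF1 match 1: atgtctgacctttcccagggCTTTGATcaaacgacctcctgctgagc

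Most of these genes had active promoter marks in HCT116 cells, and so had most coding genes. H3K4me3 past the limits was at the TSS of 8 of the 10 genes, beside 59.1% of all coding genes, and H3K9Ac at the same 8, beside 58.5%. H3K4me1 was at the TSS of 8 genes, beside 49.1%, and 7 genes had all 3 marks there, beside 43.1%. LEF1 had none of the 3, LGR5 had H3K4me1 alone and ASCL2 lacked H3K4me1. H3K27me3 was at the TSS of 2 genes, NOTUM and LGR5, beside 1.22% of coding genes, and the same 2 genes were the ones with H3K27me3 at the TSS or in the gene body, beside 3.03%. These H3K27me3 calls depend on the limits, with 0 genes under the stricter limits of the other marks and 4 with all deposited peaks. H3K4me3 and H3K27me3 together were at the TSS of 1 gene, NOTUM, beside 0.382%. CTCF was at the TSS of NOTUM and RNF43 (2 genes, beside 13.6%) and over the gene or the 10 kb around it in 7 genes, beside 62.4%. With all deposited H3K36me3 peaks, 4 genes had the mark in the gene body, beside 56.3%, and 3 had it over at least 20% of the body, beside 40.3%. The shares for CTCF over the gene were near the background, that for H3K36me3 was below it, and the counts of 10 genes move by 10 percentage points with each gene.

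**Figure D1:**
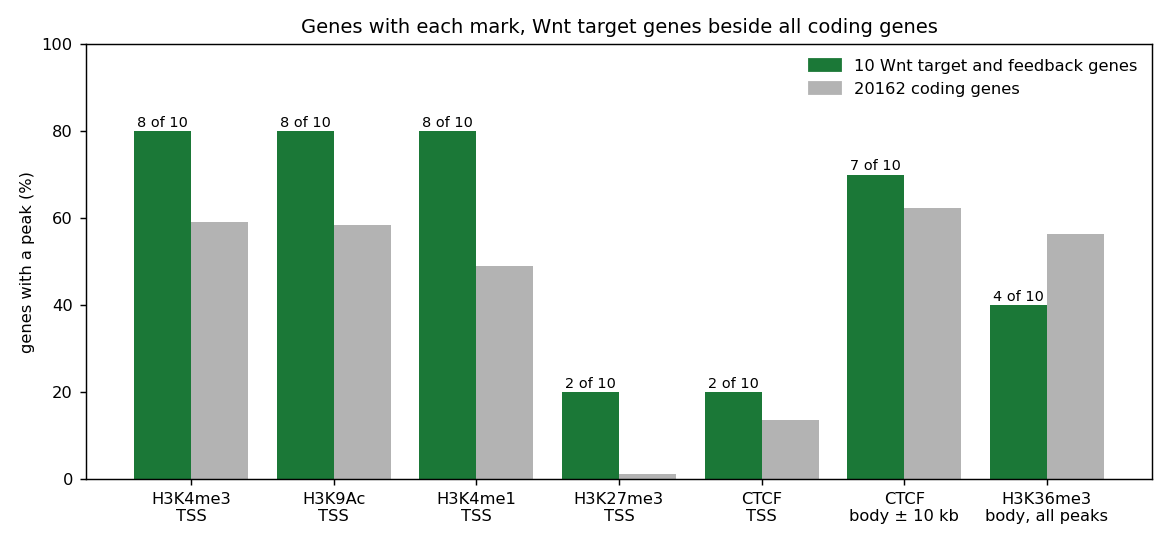
Share of genes with a peak of each mark (percent, vertical axis) for the 10 Wnt target and feedback genes (green, with counts) and for all 20162 coding genes (grey). Peaks are past the limits except for H3K36me3, where all deposited peaks are used, and the green bars stand above the grey ones for each mark but H3K36me3.

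NOTUM, which encodes a secreted enzyme that removes the lipid from Wnt ligands, lies at chr17:79910383-79919716 on the minus strand. Its TSS had a fold enrichment of 24.5 for H3K4me3, 20 for H3K9Ac and 11.9 for H3K4me1. It was also covered by H3K27me3 at 5.75 and by CTCF at 23.4, so that all 5 marks other than H3K36me3 were called past the limits over the same start. The edges of 3 of these peaks lay close together, whereas H3K4me1 extended from 2419 bp upstream to 6229 bp downstream. H3K4me3 reached from 575 bp upstream to 1750 bp downstream of the TSS, H3K27me3 from 976 bp upstream to 1747 bp downstream, and CTCF from 709 bp upstream to 1960 bp downstream. Among deposited peaks, ordered by fold enrichment, the H3K27me3 peak ranked 21 of 55270, the H3K4me1 peak 44 of 50521 and the CTCF peak 508 of 44812, whereas the H3K4me3 peak ranked 4467 of 16112 and was higher than in 59.3% of coding genes with such a peak. The H3K27me3 peak was narrow for its mark, at 2724 bp. Over the 246 coding genes with such a peak the median width was 11564 bp, and 10.2% had a narrower one. The sequence under the CTCF peak was 76.7% G and C and held no match to the 12-base CTCF core motif. Most CTCF peaks lacked it too, since 22.4% of the 24536 past the limits held a match. The marks came from different wells, and whether they lay on the same chromatin fragments was not tested.

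NOTUM also had the H3K4me1 peak with the highest fold enrichment among those of the 10 genes, 13.1, which ranked 22 in its list. It lay at chr17:79924631-79927581, from 5568 to 8518 bp upstream of the TSS and H3K9Ac covered it at 6.77. The start of an unnamed noncoding RNA lay beside its near edge, 5402 bp upstream of the NOTUM TSS, and whether the peak belongs to that start cannot be told apart. This upstream region, with H3K4me1 and H3K9Ac but no listed H3K4me3, contained NOTUM match 1 printed above. NOTUM match 2 lay between the canonical TSS and this peak, just beyond another annotated NOTUM start 653 bp upstream of the canonical TSS. No H3K36me3 peak was listed over the gene.

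LGR5 encodes a receptor of R-spondins, secreted proteins that amplify Wnt signals, and marks intestinal stem cells. Its gene lies at chr12:71833578-71980090 on the plus strand. The H3K4me1 peak over the TSS had a fold enrichment of 8.29, above that of 97.3% of the 9892 coding genes with such a peak, and the H3K27me3 peak had 4.58. By contrast, H3K4me3 reached 6.32 with a −log10 q-value of 9.11 and H3K9Ac 5.52 with a −log10 q-value of 7.32, both above the limit of fold enrichment and below that of the q-value. LGR5 therefore counted as a gene with H3K4me1 and H3K27me3, although small peaks of the active marks, 1185 and 771 bp wide, covered the same start. The H3K27me3 peak was 6045 bp wide and reached from 1693 bp upstream to 4351 bp downstream of the TSS, within intron 1. The coding gene TSPAN8, on the opposite strand, overlaps the LGR5 start, and its annotated 5′ end lies under this peak. Its canonical TSS is 281799 bp from that of LGR5, and the share of each gene in these marks cannot be told apart. Downstream, H3K4me1 peaks of 3.89 in intron 1 and 3.36 over exon 6 were past the limits, and neither H3K36me3 nor CTCF passed them anywhere over the 146513-bp gene.

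RNF43 and ZNRF3 encode related membrane ubiquitin ligases that remove Frizzled receptors from the cell surface, the step that R-spondins and LGR5 oppose. The 2 genes differed in the form of their marks. At RNF43 (chr17:56431037-56494956, minus strand), H3K4me3 had a fold enrichment of 6.98, lower than that of all but 0.646% of the 11924 coding genes with such a peak, and H3K9Ac had 6.00. The H3K4me3 peak was 2549 bp wide, but the other marks spread much farther. The H3K9Ac peak measured 31384 bp, rank 30 among the 12720 H3K9Ac peaks past the limits, and the H3K4me1 peak, at 6.20, measured 44059 bp, rank 21 among 32292. Both wide peaks began upstream of the TSS, the H3K4me1 peak by 2658 bp, and ran through exon 2 into intron 2. CTCF lay over the TSS at 7.99, and H3K36me3 peaks below the limits, with fold enrichments of up to 3.82 within the gene, covered 84.1% of the body. An unnamed coding gene on the same strand, with a start 61 bp from that of RNF43, and the antisense RNA TSPOAP1-AS1 span most of the locus, so the source of that coverage and of the promoter marks cannot be told apart. The promoter of RNF43 had the lowest CpG content of the 10: a ratio of observed to expected CpG of 0.250 at 54.3% G and C, where the median ratio of the 10 genes was 0.923 and that of all coding genes 0.773. Beyond the 3′ end of RNF43, the start of SUPT4H1, a transcription elongation factor gene, carried H3K4me3 at 26.9, H3K9Ac at 16.9 and H3K4me1 at 5.13, and the H3K9Ac and H3K4me1 peaks there reached back over the last exon of RNF43.

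At ZNRF3 (chr22:29279560-29453476, plus strand), H3K4me3 reached 19.4 and H3K9Ac 9.87 over the TSS. H3K4me1 did not cover the start but flanked it, with a peak of 4.49 that ended 451 bp upstream and a peak of 4.42 that began 881 bp downstream. ZNRF3 is the longest of the 10 genes, at 173917 bp, and its long introns held more. Peaks of 28676 and 11443 bp in intron 1, with fold enrichments of 5.11 and 5.73, and of 7504 and 14268 bp in intron 2, with 6.38 and 6.17, were among its 7 H3K4me1 peaks past the limits, the most of any of the 10 genes. The last of these overlapped the start of the antisense transcript ZNRF3-AS1, where H3K9Ac was 8.79 and H3K4me3 was 4.77, below the limits. CTCF had 1 peak past the limits, at 16.2 in intron 2, and H3K36me3 covered 15.9% of the body in 13 pieces, the widest of them (9771 bp) over exons 3 to 8.

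**Figure D2:**
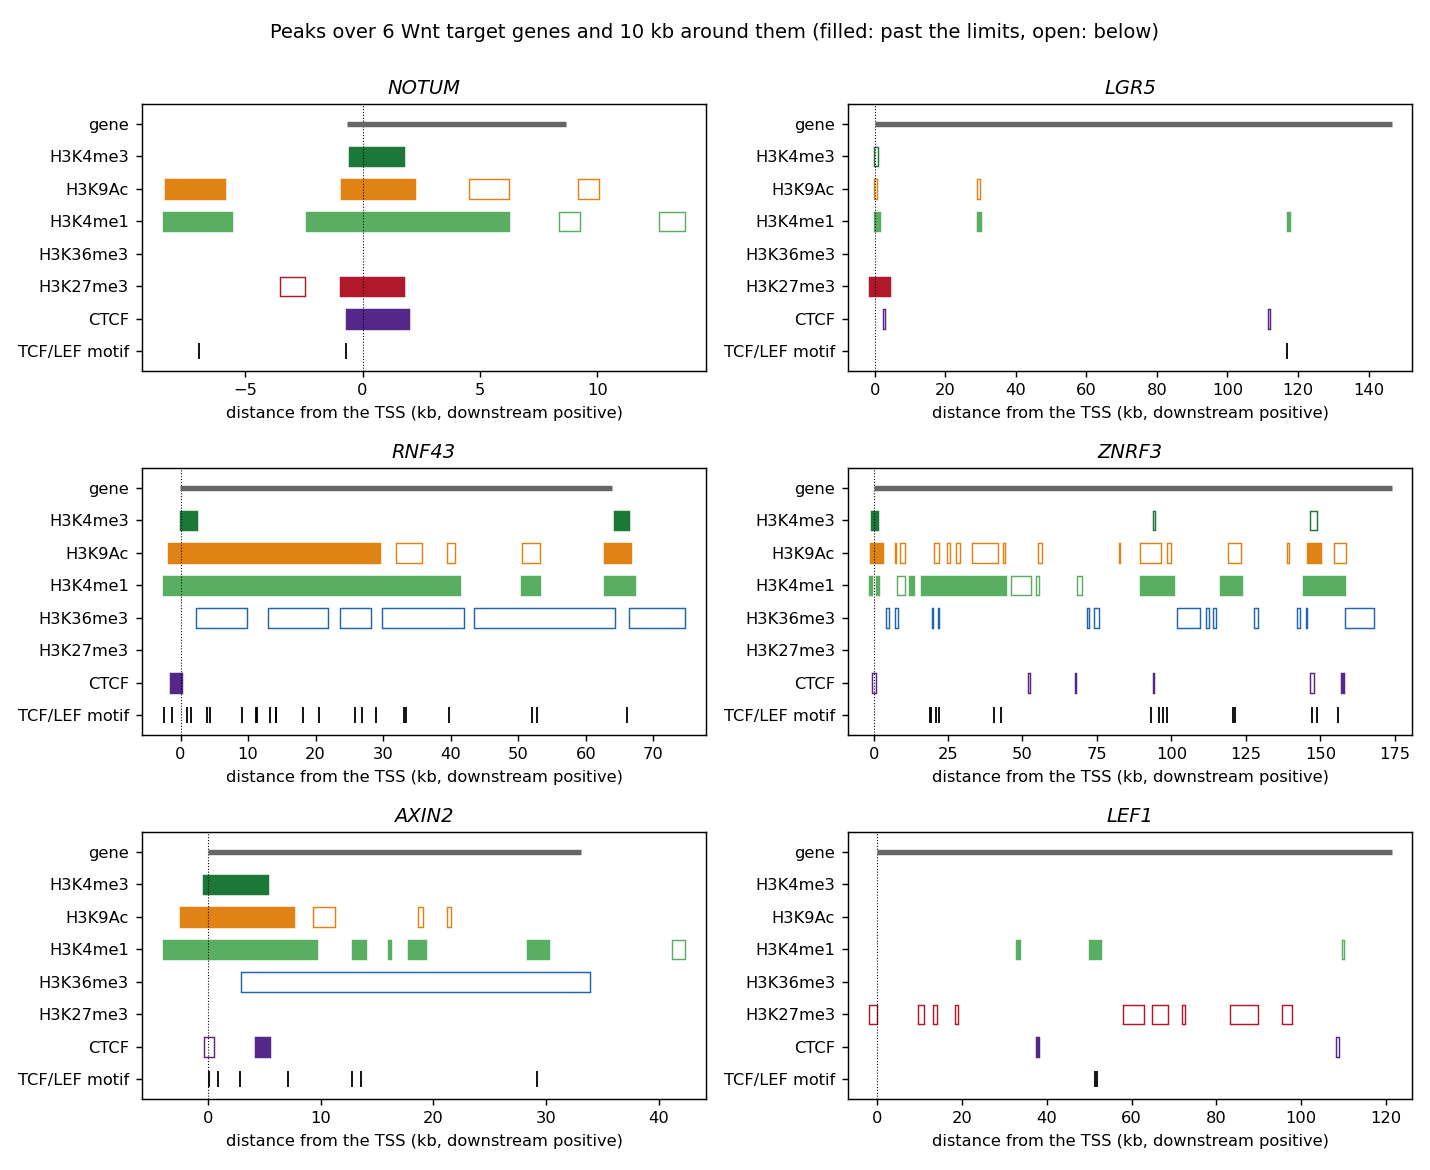
Peaks over 6 of the genes and the 10 kb around them, drawn by distance from the canonical TSS in kb, with 1 row per mark, filled bars for peaks past the limits and open bars for peaks below them. Ticks in the lowest row are TCF/LEF motif matches inside H3K4me3, H3K9Ac or H3K4me1 peaks past the limits, 23 of them at RNF43, 15 at ZNRF3 and 7 at AXIN2.

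AXIN2, a scaffold of the β-catenin destruction complex and a widely used reporter of Wnt activity, lies at chr17:63524681-63557766 on the minus strand and had the highest H3K4me3 value of the 10 genes. The fold enrichment over its TSS was 32.9, above that of 89.8% of coding genes with such a peak. The peak measured 5752 bp, rank 61 among 12749 H3K4me3 peaks past the limits, and was asymmetric: it reached 442 bp upstream and 5309 bp downstream of the TSS, through intron 1 and exon 2. H3K9Ac at 13.3 extended over 10082 bp and H3K4me1 at 6.91 over 13732 bp of the same region. H3K36me3 began inside the H3K4me3 peak. A single H3K36me3 peak of 30982 bp, with a fold enrichment of 4.40 and below the limits for that mark, started 2901 bp downstream of the TSS, ran past the 3′ end and covered 91.2% of the body, more than in 95.9% of coding genes. An unnamed coding gene overlaps much of AXIN2 on the same strand, so the source of this coverage cannot be told apart. CTCF had a peak of 11.6 in intron 2, from 4205 to 5487 bp downstream, across the far edge of the H3K4me3 peak.

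NKD1 encodes a cytoplasmic inhibitor that binds Dishevelled, and its gene lies at chr16:50582307-50683160 on the plus strand. Fold enrichments over the TSS were 18.6 for H3K4me3, 9.85 for H3K9Ac and 6.47 for H3K4me1, and the H3K4me3 and H3K9Ac peaks were narrower than the median peak. H3K4me3 measured 1730 bp, where the median of coding genes was 2061 bp, and H3K9Ac 1672 bp, where it was 3112 bp. H3K27me3 peaks below the limits lay on each side of the start, at 2.81 upstream and 2.70 downstream. The strongest H3K4me1 peak of NKD1 was not at the promoter but in intron 3, at 7.58, from 53548 to 56061 bp downstream of the TSS, and a weaker one of 3.88 lay in intron 4. CTCF passed the limits at 8.17 over exon 10, in the 3′ UTR. No H3K36me3 peak was listed over NKD1, although its H3K4me3 and H3K9Ac values resembled those of ZNRF3.

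Of the nuclear members, LEF1 alone had no listed peak of an active mark at its TSS. TCF7 and LEF1 encode DNA-binding partners of β-catenin, and both are known to have internal promoters whose products lack the β-catenin binding end. TCF7 (chr5:133450372-133487556, plus strand) had H3K4me3 at 22.6, H3K9Ac at 9.56 and H3K4me1 at 5.72 over its TSS. At the internal starts 8937, 27504 and 28111 bp downstream no H3K4me3 peak was listed. Near the first of these, H3K4me1 at 6.39, from 9400 to 11883 bp downstream in intron 3, was higher than at the main start. H3K9Ac over that intronic peak was 2.97, below the limits, and near the start at 27504 bp H3K4me1 was 4.2, past the limits. CTCF had peaks of 11.6 in intron 5 and 12.9 at exon 10. H3K36me3 covered 68.0% of the TCF7 body, most of it by a 38007-bp peak that continued past the 3′ end into the neighbouring gene SKP1, which is transcribed toward TCF7, so that the source of that coverage cannot be told apart.

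LEF1 (chr4:108968701-109090112, minus strand) had no listed peak of H3K4me3 or H3K9Ac anywhere over the gene or the 10 kb around it. The 3 groups of annotated starts, the farthest of them 2135 bp from the canonical TSS, also lacked H3K4me1. The gene had 9 H3K27me3 peaks below the limits, with fold enrichments of up to 3.07 where the median of all deposited H3K27me3 peaks was 2.93. Of the 9, 1 lay from 172 to 2035 bp upstream of the TSS at 3.05. That peak lies within the antisense RNA LEF1-AS1, which spans the LEF1 start and has its own start 2959 bp away. The share of each gene in that peak cannot be told apart. Intron 3 held H3K4me1 peaks of 4.10 and 3.84 and a CTCF peak of 9.24, all past the limits and without H3K9Ac. LEF1 was thereby unlike the rest of its family, since TCF7 had H3K4me3 at its TSS, as had TCF7L1 at 17.3 and TCF7L2 at 21.1, which were looked up after their values were seen.

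SP5 and ASCL2 are short genes for transcription factors, SP5 a zinc-finger protein and ASCL2 a helix-loop-helix protein of intestinal stem cells. At SP5 (chr2:171571847-171574588, plus strand), H3K4me3 was 8.02, H3K9Ac 7.71 and H3K4me1 9.03. The H3K4me1 value was higher than in 98.5% of coding genes with such a peak, whereas the H3K4me3 value was higher than in 2.11%, so that H3K4me1 exceeded H3K4me3 in its place within the list. The same peaks covered the start of the divergent noncoding RNA LINC01124, 770 bp upstream, and the share of each start cannot be told apart. At ASCL2 (chr11:2289728-2291818, minus strand), H3K4me3 at 7.60 and H3K9Ac at 8.26 were 898 and 997 bp wide and began 820 and 702 bp downstream of the TSS, within the gene. H3K4me1 there was 3.85, with a q-value just short of the limit. With a window of 500 bp around the TSS, ASCL2 lost its H3K4me3 and H3K9Ac calls. No H3K36me3, H3K27me3 or CTCF peak was listed within 10 kb of either gene.

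**Figure D3:**
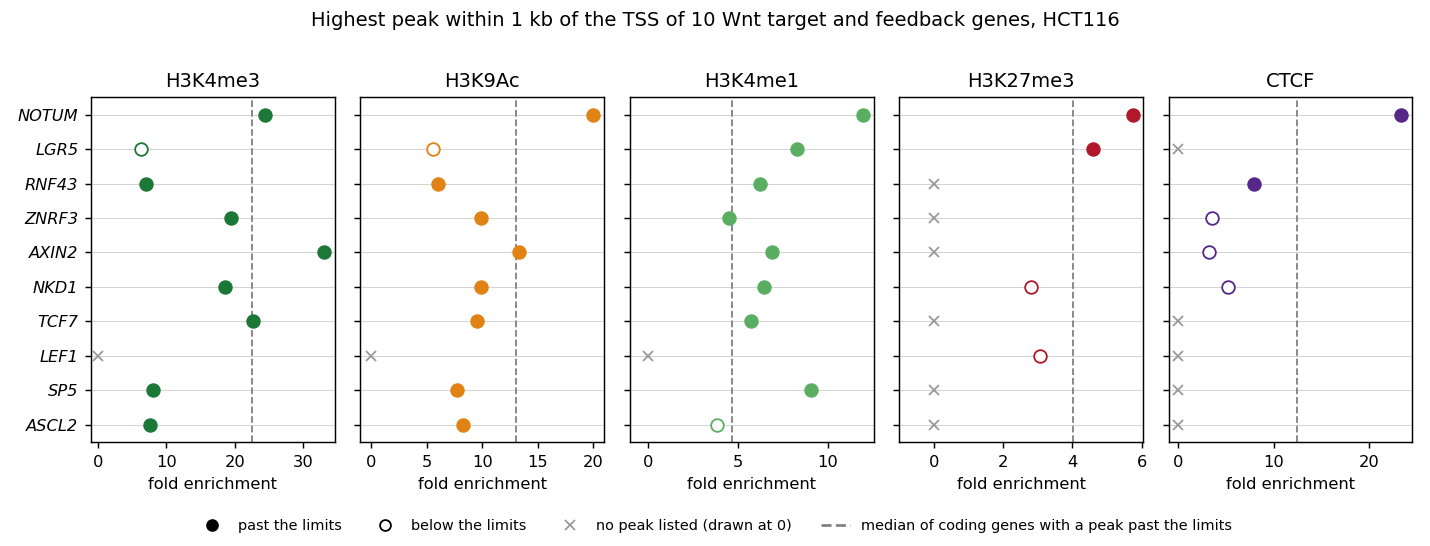
Fold enrichment of the highest peak within 1 kb of the TSS (horizontal axis, linear ratio) for each of the 10 genes and 5 marks, filled past the limits, open below them and a cross where no peak was listed. Dashed lines are the medians of coding genes with a peak past the limits: H3K4me3 lies above its line in NOTUM, AXIN2 and, barely, TCF7, and H3K4me1 lies above its line in 7 genes.

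Over the genes with a call, the medians of H3K4me3 and H3K9Ac lay below those of all coding genes. The median fold enrichment at the TSS was 19.0 for H3K4me3 in 8 genes, from 6.98 to 32.9, beside 22.5 in 11924 coding genes. For H3K9Ac it was 9.70, from 6.00 to 20, beside 13.1 in 11797 coding genes, and below the lower quartile there. H3K4me1 went the other way, with a median of 6.69, from 4.49 to 11.9, beside 4.69 in 9892 coding genes and an upper quartile of 5.57 there. The genes differed, since H3K4me1 at ZNRF3 lay below the coding median and H3K4me3 ranged from near the bottom of its range at RNF43, ASCL2 and SP5 to the upper part at AXIN2. In width the median H3K4me3 peak, 2000 bp, was close to that of coding genes, 2061 bp. The widest was that of AXIN2, and the narrowest that of ASCL2, with 1.58% of coding genes narrower. The lowest H3K9Ac value, at RNF43, belongs to a peak of 31384 bp, where the median width of coding genes was 3112 bp.

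**Figure D4:**
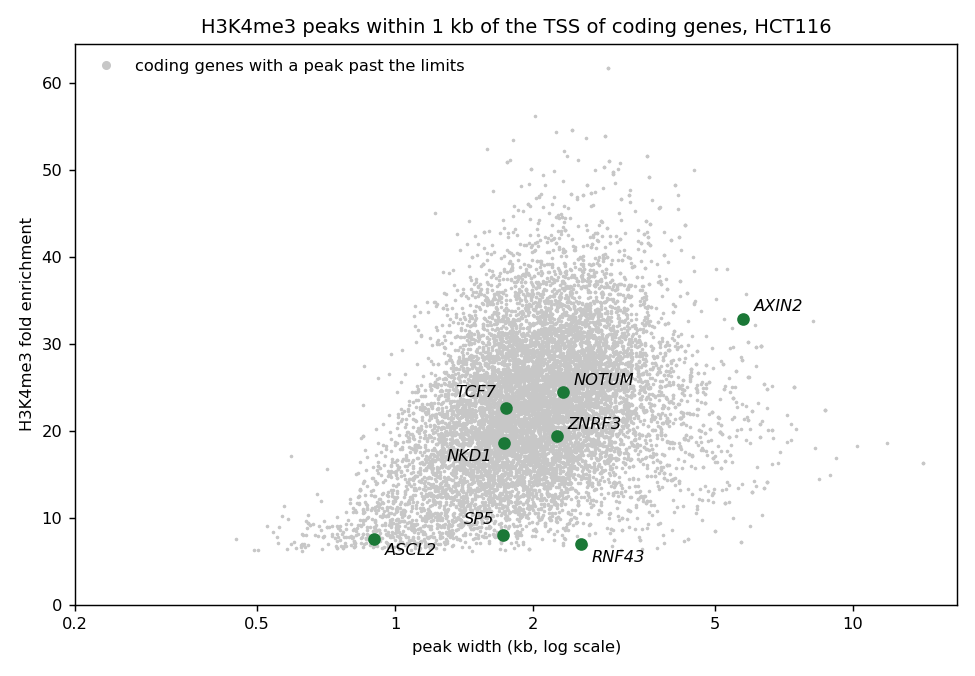
H3K4me3 fold enrichment (vertical axis, linear ratio) against peak width (horizontal axis, kb, log scale) for the 11924 coding genes with an H3K4me3 peak past the limits at the TSS (grey) and 8 Wnt target genes (green). AXIN2 stands apart at 5752 bp and a fold enrichment of 32.9, and RNF43, SP5 and ASCL2 lie along the lower edge.

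Away from the promoters of coding genes, the 10 genes had 19 H3K4me1 peaks past the limits that lay more than 1 kb from the TSS of every coding gene. They covered 86.6 kb, of which 63.4 kb were at ZNRF3. H3K9Ac of any strength overlapped 10 of the 19, and H3K9Ac past the limits 2, those upstream of NOTUM and at ZNRF3-AS1. Over all coding genes, 15937 such peaks overlapped H3K9Ac of any strength in 73.0% and past the limits in 17.7%. CTCF past the limits overlapped 2 of the 19, beside 17.9%. The distal H3K4me1 peaks of LEF1 carried no H3K9Ac, and LGR5, RNF43, AXIN2, NKD1 and TCF7 each had 1 with H3K9Ac below the limits.

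CTCF peaks past the limits numbered 8 over the 10 genes, of which 3 held the 12-base CTCF core motif, beside 22.4% of the 24536 CTCF peaks past the limits. The 3 were intronic, in AXIN2, TCF7 and ZNRF3, and both promoter peaks, at NOTUM and RNF43, lacked it. They are printed with the core in capitals, each on the minus strand: AXIN2 from chr17:63552670-63552721 (intron 2), TCF7 from chr5:133476322-133476373 (intron 5) and ZNRF3 from chr22:29436831-29436882 (intron 2).
AXIN2 CTCF core: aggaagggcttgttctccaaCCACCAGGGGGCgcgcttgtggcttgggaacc
TCF7 CTCF core: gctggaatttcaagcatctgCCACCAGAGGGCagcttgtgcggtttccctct
ZNRF3 CTCF core: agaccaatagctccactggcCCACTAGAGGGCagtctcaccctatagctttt

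The TCF/LEF motif was denser in the marked chromatin of these genes than in the lists as a whole. In H3K4me3 peaks past the limits it occurred 0.519 times per kb over the 10 genes and 0.0785 times per kb in all 12749 peaks. The corresponding densities were 0.443 and 0.104 per kb for H3K9Ac and 0.356 and 0.128 per kb for H3K4me1, and those for CTCF, 0.106 and 0.128 per kb, rest on 1 match over the 10 genes. An AT-rich motif depends on base composition, and the H3K4me3 peaks of the 10 genes held 62.3% G and C beside 58.6% in the whole list, those of H3K9Ac 49.3% beside 53.1%, those of H3K4me1 47.7% beside 49.5% and those of CTCF 55.6% beside 49.2%. Densities at matched base composition were compared only for the widest H3K4me1 peak of the 10 genes, the 44059-bp peak of RNF43. The whole motif lay within 1 kb of the TSS in 6 of the 10 genes, beside 17.1% of coding genes. RNF43 match 3, whose near edge is 999 bp from the TSS, crosses the edge of that window and is not counted there. It does count within 1 kb where matches are sorted by distance. With CTTTGAA also accepted, the motif occurred in the 300-base promoter window of 3 genes, beside 5.27%. Wnt targets are commonly recognised through such motifs, so for genes chosen by name these densities are a description.

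Within the loci the motif was compared inside and outside peaks. Over the 10 genes and the 10 kb around them it occurred 0.356 times per kb inside H3K4me1 peaks past the limits and 0.199 times per kb outside, with 47.7% and 44.9% G and C. NKD1 had the steepest contrast, 1.19 inside (7 matches, 58.6% G and C) against 0.183 per kb outside (51.3%), and RNF43 had 0.447 against 0.123 per kb, there with 41.1% G and C inside and 46.3% outside. LGR5 had nearly equal densities, 0.263 and 0.252 per kb, and ASCL2 had no such peak. At NOTUM, LGR5, TCF7, LEF1 and SP5 the density inside peaks rests on at most 2 matches each. The 44059-bp H3K4me1 peak of RNF43 held 20 matches, and none of the 32292 H3K4me1 peaks past the limits held more. Its density of 0.454 per kb compares with 0.136 per kb in the 935 peaks at least 10 kb wide and with 0.192 per kb in the 9008 peaks whose G and C content was within 5 percentage points of its own 39.6%. RNF43 matches 10 and 12, both in that peak, are followed by nearly the same bases, so the count includes a repeated stretch. AXIN2 held 3 matches inside its H3K4me3 peak, at 74, 862 and 2830 bp downstream of the TSS, and SP5 2 matches, at 109 and 302 bp upstream. A match is a stretch of letters in the reference, and binding of TCF or LEF proteins was not measured.

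**Figure D5:**
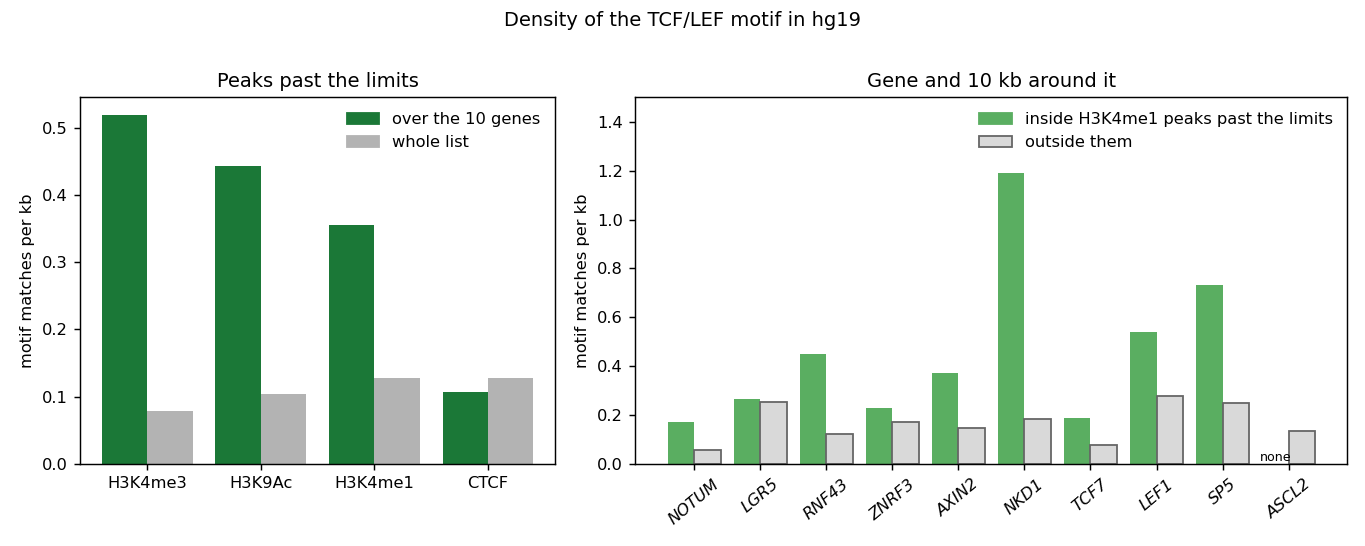
TCF/LEF motif matches per kb of hg19. Left, peaks past the limits over the 10 genes (green) and in the whole list (grey) for 4 marks; right, for each gene and the 10 kb around it, sequence inside (green) and outside (light grey) H3K4me1 peaks past the limits, highest at NKD1 with 1.19 per kb inside.

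Other genes of the pathway give the setting. Of 11 paralogues of the 10 genes, 6 had H3K4me3 at the TSS, as had 24 of 29 core pathway genes, 13 of 22 other intestinal Wnt targets and 0 of 4 R-spondin genes, beside 59.1% of all coding genes, a share close to that of the paralogues (54.5%) and of the other targets (59.1%). Chosen after their values were seen, LGR4 and AXIN1 show that paralogues could differ: H3K4me3 was 34.6 at LGR4, the relative of LGR5 without a call, and 13.7 at AXIN1, where AXIN2 had 32.9. LGR6, the third of these receptors, had no active mark at its TSS and H3K27me3 at 3.22, below the limits. H3K4me1 with H3K27me3 past the limits and H3K4me3 below them, as at LGR5, was also found at FZD8, a Wnt receptor gene, with H3K4me1 at 6.67, H3K27me3 at 4.55 and H3K4me3 at 5.08, and at RSPO1, with H3K4me1 at 5.92, H3K27me3 at 3.91 and H3K4me3 at 5.82. CTNNB1, also picked with its values in view, had H3K4me3 at 30.8, H3K9Ac at 17.9 and H3K4me1 at 7.07. The H3K36me3 share of the body had a median of 17.9% in the core genes and 5.18% in the other intestinal targets, and of 0% in the 10 genes, the paralogues and the R-spondin genes, beside 4.83% in all coding genes.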

How the data were processed

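PIXUL-ChIP-seq peak lists of 6 of 7 labelled libraries were used. Not analysed here were H3K27Ac, RNA-seq and ENCODE data. The authors used BWA 0.7.12 on hg19 and then MACS2, with a broad cutoff of 0.1, on each library, whereas the submitters' processing notes name MACS 1.4.2. The authors deposited for each peak its fold enrichment, a linear ratio, and its −log10 p-value and −log10 q-value. No limits are stated for CTCF, so those of the other marks were applied. Peak names in 5 of the 6 lists carry the name of the cell line, and those of H3K27me3 do not.

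Genes were taken from GENCODE 44 on hg19 (GRCh37) and sequences from the same build. Overlaps needed 1 bp. The code was tested on simulated data, with 600 of 600 planted overlaps recovered, and on the real lists 0 of 60 counts differed from bedtools 2.31.1. Python 3.11.15, numpy 2.4.6, pyfaidx 0.9.0.4 and matplotlib 3.10.9 were used. The members and lists were chosen with earlier results of these data known. All members are named, and other genes by list where their TSS state differs from the majority, or as said. PECAM1 could not be matched by name. Alternatives were other limits, TSS windows, starts, flanks, merging within 1000 bp, coverage minimum and motif forms.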

Additional observations from a re-analysis of the deposited data

How the results depend on the processing

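Of 37 alternatives, 30 left the count within 1.5 times the value reported and 7 moved it further. Under the stricter limits used for H3K4me3, H3K4me1 was at the TSS of 5 genes (ZNRF3, NKD1 and TCF7 lost it), beside 7% of coding genes, and H3K27me3 at the TSS or over the body of 0, beside 0.0496%. With all deposited peaks, H3K27me3 was there in 4 genes, NKD1 and LEF1 included, beside 21.3%. H3K36me3 past the limits was in the body of 0 genes, beside 0.496%, so every statement on that mark rests on weaker peaks. The peaks over the genes numbered 59 past the limits and 279 with 50 kb around the genes. The whole TCF/LEF motif lay within 1 kb of the TSS in 6 genes, beside 17.1%. These changes follow from how each alternative is built. H3K4me3 and H3K9Ac kept between 7 and 9 genes throughout, as LGR5 was gained and RNF43 or ASCL2 lost. No paired analysis was possible because there is 1 library for each mark and no test. Unknown depth limits which weak peaks were called, so a missing peak is not evidence that the mark is absent, and a ratio of a mark says nothing of its amount relative to another mark.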
